A study of Rattus norvegicus with 3 samples.

Results

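The 38 genes described here encode lysosomal enzymes, cathepsins, lysosomal membrane proteins and subunits of the lysosomal proton pump. The members are a list of gene names, drawn up with earlier results of these data known, and each was read at probes whose sequence accession belongs to that gene. All 38 had at least 1 probe on each array design, among 15296 named genes on the arrays. Total RNA came from whole common carotid arteries of male Wistar rats, and the age was not given in the sources used here. The 3 groups were an uninjured artery, an artery 7 days after balloon injury and an artery 21 days after balloon injury, with 1 array in each group. RNA was isolated animal by animal, per the labels, and other arrays of the same experiments were not analysed here.

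Lysosomes are acidic compartments in which proteins, lipids and glycans taken up by a cell or released from its own organelles are broken down. The vacuolar proton pump (V-ATPase) acidifies them, which activates cathepsins and other hydrolases, while membrane proteins protect the boundary and export the products. Macrophages hold large amounts of these enzymes, and cathepsins secreted by macrophages and smooth muscle cells degrade elastin and collagen in the artery wall. Balloon injury strips the endothelium, and smooth muscle cells then migrate and form a neointima.

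Many lysosomal genes carry a CLEAR element near their start, a sequence read by the transcription factor TFEB and its relatives. The promoters below are shown because the 4 genes that hold its core behaved differently between the arrays, and because Ctss had the highest day 21 ratio of the set. RefSeq entries on the GRCr8 build, 250 bases before to 50 bases after the annotated start and written in the direction of transcription, matched 31 of the 38 genes. No entry was used for Ctsb, Psap, Asah1, Hexa, Atp6v0d2, Atp6v1b2 and Atp6v1h. The core TCACGTGA, which reads the same on both strands and contains CACGTG, was found in 4 of the 31 promoters (12.9%), against 0.777% of 33469 rat promoters of the same length and 1.02% of the 21851 protein-coding ones. It lay in Ctsd (bases 240 to 247 of the window), Lamp1 (bases 185 to 192 and 212 to 219), Mcoln1 (bases 254 to 261) and Atp6v0d1 (bases 198 to 205). CACGTG alone was present in 7 members (22.6%), these 4 with Cd63, Glb1 and Gaa, against 6.42% of all promoters and 7.02% of protein-coding ones. The full element, the core with G before it and C after it, was in 0 members and in 0.233% of all promoters (0.311% of protein-coding ones). GAGGAAGT, a form of the box bound by the myeloid factor PU.1, was searched on both strands. It was in 3 members (9.68%), Ctsc, Ctss and Gla, each on the opposite strand, against 2.42% of all promoters and 2.3% of protein-coding ones. A match describes letters in a window and shows no binding.

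The windows were chr1:206968772-206969071 (minus strand) for Ctsd, chr16:83075014-83075313 (minus) for Lamp1, chr12:6358008-6358307 (plus) for Mcoln1, chr19:50357199-50357498 (minus) for Atp6v0d1 and chr2:185775146-185775445 (plus) for Ctss. Capitals mark TCACGTGA in the first 4 and, in Ctss, ACTTCCTC, which is GAGGAAGT read on the opposite strand, at bases 234 to 241.
Ctsd: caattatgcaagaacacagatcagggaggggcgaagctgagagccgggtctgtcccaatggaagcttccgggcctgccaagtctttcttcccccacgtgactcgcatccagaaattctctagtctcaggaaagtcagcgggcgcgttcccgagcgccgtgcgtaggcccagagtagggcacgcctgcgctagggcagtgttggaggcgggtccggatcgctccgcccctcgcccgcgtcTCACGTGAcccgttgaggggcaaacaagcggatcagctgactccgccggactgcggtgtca
Lamp1: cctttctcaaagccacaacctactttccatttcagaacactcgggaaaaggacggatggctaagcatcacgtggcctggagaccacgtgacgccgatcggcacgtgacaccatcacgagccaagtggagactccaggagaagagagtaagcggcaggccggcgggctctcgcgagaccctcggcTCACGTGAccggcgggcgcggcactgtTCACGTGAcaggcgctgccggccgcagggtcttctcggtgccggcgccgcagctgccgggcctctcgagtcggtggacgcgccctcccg
Mcoln1: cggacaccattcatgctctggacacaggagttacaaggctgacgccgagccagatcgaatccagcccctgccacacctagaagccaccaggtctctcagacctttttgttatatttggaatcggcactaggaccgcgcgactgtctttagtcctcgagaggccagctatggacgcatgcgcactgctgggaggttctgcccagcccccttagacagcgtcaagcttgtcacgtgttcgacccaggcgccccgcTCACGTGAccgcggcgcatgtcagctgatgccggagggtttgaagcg
Atp6v0d1: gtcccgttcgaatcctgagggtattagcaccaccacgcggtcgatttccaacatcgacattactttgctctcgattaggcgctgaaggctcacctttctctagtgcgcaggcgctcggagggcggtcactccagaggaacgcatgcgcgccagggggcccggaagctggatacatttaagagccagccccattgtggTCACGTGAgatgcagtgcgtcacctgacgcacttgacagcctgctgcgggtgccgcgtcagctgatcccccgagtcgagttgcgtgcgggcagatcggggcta
Ctss: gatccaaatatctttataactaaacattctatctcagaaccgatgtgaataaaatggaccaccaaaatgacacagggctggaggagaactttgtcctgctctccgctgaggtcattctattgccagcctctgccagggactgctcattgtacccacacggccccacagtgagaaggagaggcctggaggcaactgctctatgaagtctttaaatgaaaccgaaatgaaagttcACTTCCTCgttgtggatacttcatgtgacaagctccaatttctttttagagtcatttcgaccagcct
Of the 4 genes with the core, Ctsd stood apart at day 21, while Mcoln1 and Lamp1 lay close together. In the comparison of day 21 with uninjured, Ctsd had a log2 ratio of 2.04 ± 0.13 while Mcoln1, Lamp1 and Atp6v0d1 had 0.76 ± 0.16, 0.67 ± 0.14 and 0.29 ± 0.15. At day 7 against uninjured, Ctsd (-0.57) and Atp6v0d1 (-0.32) were below 0, and Mcoln1 (0.44) and Lamp1 (0.58) above.

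A relative signal is a probe's signal divided by the 75th percentile of the signals on that array, taken over the 10583 probes usable on all 3 arrays, and it is compared only between arrays for 1 gene. A log2 ratio is the difference between 2 arrays of such scaled log2 signals. For day 21 against uninjured, which share a design, the ratio was scaled over all 40989 probes of that design, which adds 0.15 to the log2 ratio that the relative signals would give. The figure after ± is a technical error, predicted from the SD of repeated spots of 1 probe on 1 array at that signal. With 1 array per group it leaves out the spread between animals, so no test was possible and genes were counted by 2-fold. A gene was counted as measured when it was well above background on both arrays, and a gene above background on 1 array only is given as at least N-fold. A bound divides the bright signal by the higher of the dim probe's own signal and the lowest signal well above background on the dim array. Well above background were 34 members in the uninjured artery, 37 at day 7 and 37 at day 21.

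Over the gene spots of each array, the 75th percentile was 51.5 intensity units in the uninjured artery, 354 at day 7 and 142 at day 21. These are not the values that divide the relative signals. Over the shared probes the 75th percentile was, in log2 units, 6.99 in the uninjured artery, 7.85 at day 7 and 8.58 at day 21. In that order 60.3%, 81.1% and 67.2% of gene spots were well above background, and 0 spots were saturated. The day 7 array was of another design, from another scan and another software version, so in both comparisons with it the group cannot be told apart from these. Macrophage markers moved with the injured arrays. Of 16 listed markers, 11 had a probe on all arrays, and their summed relative signal was 11.5 without injury, 146 at day 7 and 291 at day 21. Of these 11, Msr1, Itgam and Itgb2 were not well above background on the uninjured array, and Cd163, read at a probe of the older design only, was not well above background at day 21 or uninjured. Contractile smooth muscle markers, all 4 with a shared probe well above background on every array, summed to 172, 37.2 and 28.2, most of it from Tagln. At day 7 against uninjured Tagln, Cnn1 and Des had log2 ratios below 0, while Lmod1 had 0.30 ± 0.29. At day 21 against uninjured all 4 were below 0. The summed signal was 164, 332 and 165 for 4 fibroblast markers, most of it from Col1a1, and the 4 went different ways. At day 7 against uninjured the log2 ratios were 1.26 for Col1a1, 0.87 for Lum, -0.26 for Pdgfra and -0.95 for Dcn. At day 21 against day 7, Pdgfra had 1.52, Lum 1.17, Dcn 0.08 and Col1a1 -1.39. For 5 endothelial markers the sum was 1.21, 4.32 and 5.73, with Tek and Tie1 not well above background without injury. Between the injured arrays Nos3 had -0.58 and the other 4 were above 0. Cdh5 and Pecam1 were read at probes of the older design only. At day 21 against uninjured Cdh5 had -0.21 and Pecam1 was at least 1.67-fold higher. For 4 Schwann cell markers the sum was 1.09, 16.3 and 0.619, with S100b not well above background on any array. For 2 adipocyte markers the sum was 1.01, 3.41 and 13.0, carried by Fabp4, as Cidec was not well above background on any array. Of the adipocyte markers on the older design only, at day 21 against uninjured Adipoq had 0.43, Pparg was at least 2.68-fold higher and Lep was not well above background. The sum was 1.22, 1.37 and 2.82 for 6 T and NK cell markers (4, 5 and 5 well above background). It was 0.387, 1.94 and 0.510 for 3 neutrophil markers (2, 3 and 2) and 1.11, 0.204 and 0.21 for 1 skeletal muscle marker. In whole artery, more cells of a type and more RNA per cell cannot be told apart. The part of these cell types in the ratios below was not tested.

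At day 21 the lysosomal genes lay above the uninjured artery almost throughout. Of 34 measured members, 20 were at least 2-fold higher (58.8%) and 0 were lower by that much, while of the 9420 genes measured in this comparison 9.11% were at least 2-fold higher and 13.7% lower. Their median log2 ratio was 1.10, against -0.20 for all genes, and 33 of the 34 were above 0. The members ranged from -0.27 (Smpd1) to 5.42 (Ctss). Measured against the ratios of all genes, 23 of the 34 lay above the 90th percentile and 14 above the 95th. Gusb and Atp6v0d2 add bounds of at least 3.09-fold and at least 18.6-fold. A ratio of 2-fold was just missed by Hexa, with a log2 ratio just below 1, and by Asah1, with 0.99 ± 0.14, and just passed by Ctsh, with 1.02 ± 0.14.

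At day 7 the members split. Of 31 measured members, 11 were at least 2-fold higher than in the uninjured artery (35.5%) and 0 lower, beside 16.1% higher and 16.3% lower among 5244 measured genes. The median log2 ratio was 0.52 against -0.01 for all genes, with members from -0.87 (Atp6v1e1) to 3.20 (Ctsk). Above 0 were 22 of the 31, and 8 lay above the 90th percentile of all genes. These counts rest on the scaling: when all probes of each design set its scale, 4 members were higher and 12 lower, and the median was -0.70. Of all genes, 3.43% were then higher and 59.5% lower, with a median of -1.23. The comparison of day 21 with day 7 had 11 of 32 members at least 2-fold higher (34.4%, beside 10.7% of 5641 genes) and 1, Ctsk, lower (3.12%, beside 20.0%). The median there was 0.75 against -0.19 for all genes. The 3 comparisons share arrays, so their values stand side by side and do not support one another.

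**Figure D1:**
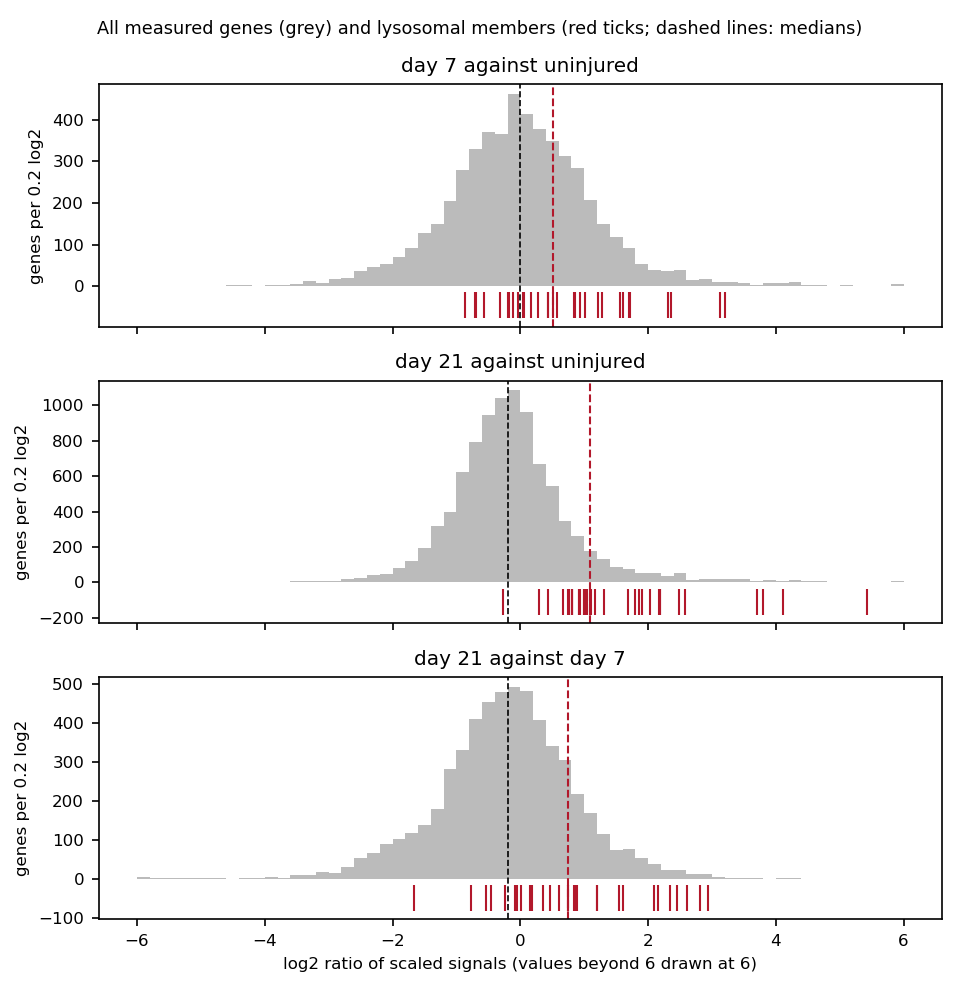
Histograms of the log2 ratios of all measured genes (grey, genes per 0.2 log2) in the 3 comparisons, with the lysosomal members as red ticks and both medians as dashed lines. The red median lies right of the black one in each panel, at 0.52, 1.10 and 0.75 against -0.01, -0.20 and -0.19.

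**Figure D2:**
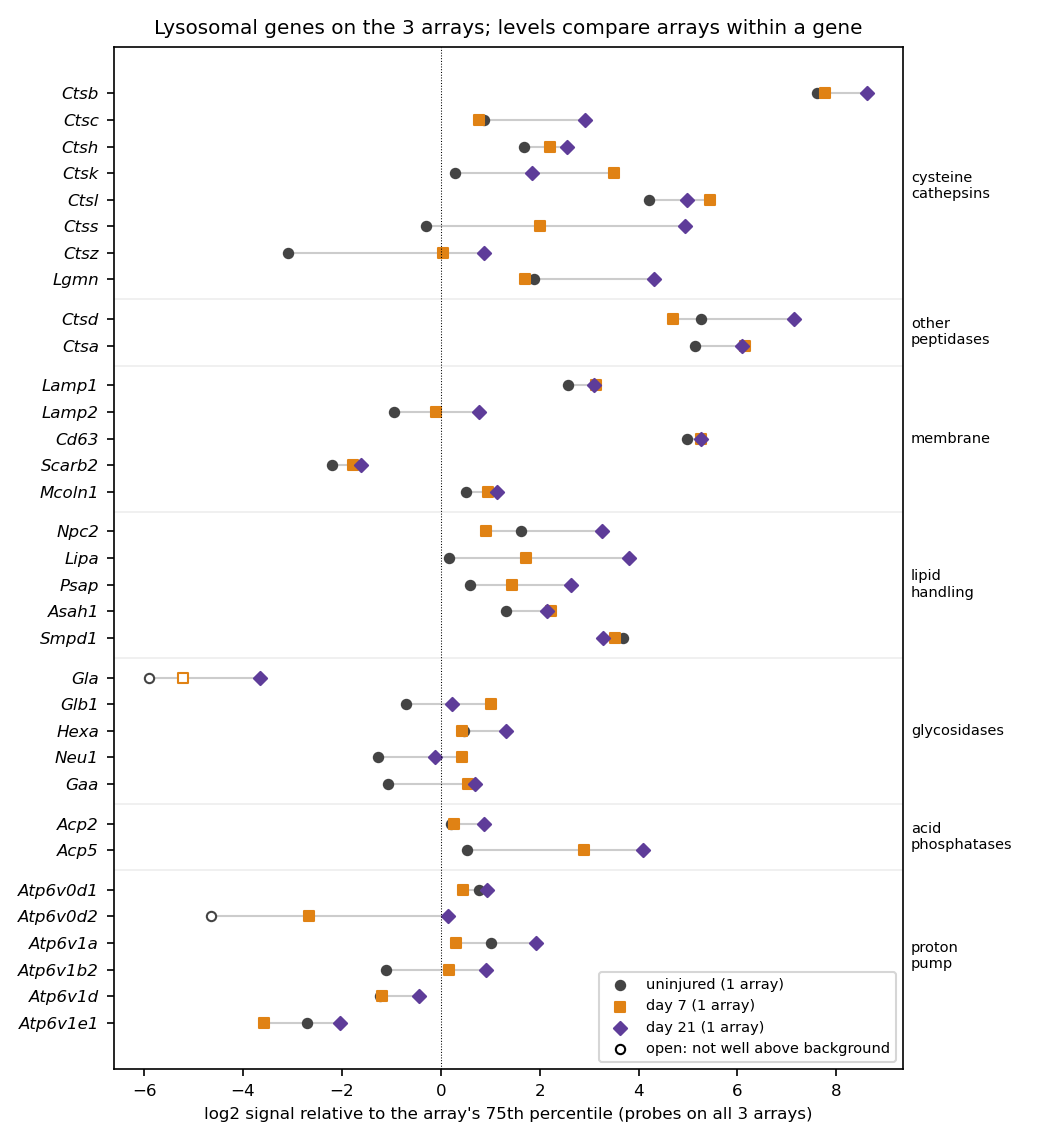
Log2 relative signal of the 33 members with a probe on all 3 arrays, 1 point per array (circles uninjured, squares day 7, diamonds day 21), ordered by role, with open symbols for probes not well above background. Ctss and Lipa step up from uninjured to day 7 to day 21, Ctsd and Npc2 are lowest at day 7, and Ctsk is highest at day 7.

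The cysteine cathepsins and legumain, the papain-like proteases and the asparaginyl endopeptidase of the lysosome, included the highest measured ratio of each comparison, Ctsk at day 7 and Ctss in both comparisons of day 21. At day 21, 7 of 8 were at least 2-fold higher than uninjured (beside 9.11% of all genes), with a median log2 ratio of 1.94. At day 7, 4 of 8 were (beside 16.1%), with a median of 0.87. Ctss, an elastin-degrading cathepsin that also trims the invariant chain in antigen-presenting cells, had relative signals of 0.813, 4.04 and 30.9 (here and below in the order uninjured, day 7, day 21). It was low before injury, higher at day 7 and far higher at day 21, with log2 ratios of 2.31 ± 0.16 and 5.42 ± 0.16 (4.96-fold and 42.8-fold) against uninjured. The day 21 ratio was read at a brighter probe of the older design, and both of its Ctss probes lay close together, at 5.39 and 5.42. Ctsz, a carboxypeptidase, read 0.118, 1.02 and 1.83, an increase of 3.12 ± 0.26 log2 by day 7 and 4.11 ± 0.28 by day 21 (8.72-fold and 17.2-fold). It was low on the uninjured array, where its technical error was wider than for Ctss.

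Ctsk, the collagen-cleaving cathepsin best known from osteoclasts, followed another course. Its relative signals were 1.23, 11.3 and 3.58, so the day 7 array was highest and day 21 lay between. The log2 ratio was 3.20 ± 0.16 at day 7 (9.21-fold) and 1.69 ± 0.15 at day 21 (3.23-fold), and day 21 was 3.16-fold below day 7 (log2 ratio -1.66 ± 0.15). Between the 2 injured arrays the ratios of Ctss and Ctsk were 4.59 log2 units apart. Ctsl, a broad endopeptidase, had its highest signal at day 7 as well (18.6, 43.4 and 31.7), with 1.22 ± 0.13 at day 7 and 0.91 ± 0.13 at day 21. With own-design scaling, in which all probes of each design set its scale, day 21 against day 7 was -0.29 for Ctsk and 0.92 for Ctsl, so the order of the injured arrays turned for Ctsl. The day 7 log2 ratio to uninjured was then 0.003 for Ctsl and 1.98 for Ctsk. Of the 8 osteoclast markers listed, Mmp9, Calcr and Itgb3 had probes: Mmp9 had bounds of 6.63-fold (day 7) and 9.55-fold (day 21) over uninjured, Calcr had a bound of 1.88-fold higher at day 7, a log2 ratio of -1.02 at day 21 and a bound of 4.62-fold lower at day 21 than at day 7, and Itgb3 was not well above background on either array of the older design.

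Lgmn and Ctsc were more than 2-fold higher at day 21 and, with scaling on the shared probes, close to uninjured at day 7. With own-design scaling their day 7 log2 ratios were -1.41 and -1.33. Legumain, which processes other cathepsins to their mature forms, read 3.69, 3.24 and 19.8, and day 21 was 5.95-fold above uninjured (2.57 ± 0.14) and 6.13-fold above day 7 (2.62 ± 0.14). The day 7 value, -0.19 ± 0.13, was close to its technical error. Ctsc, the dipeptidyl peptidase that activates granule serine proteases, read 1.84, 1.70 and 7.57, with -0.12 ± 0.13 at day 7 and 2.19 ± 0.15 at day 21 (4.55-fold). Ctsb, an endo- and exopeptidase, and Ctsh, an aminopeptidase, moved less. Their relative signals were 194, 219 and 394 for Ctsb and 3.21, 4.59 and 5.87 for Ctsh, and their day 21 log2 ratios were 1.17 ± 0.13 and 1.02 ± 0.14.

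The 3 aspartic and serine peptidases were all at least 2-fold higher at day 21, beside 9.11% of all genes. Ctsd, the main aspartic protease of lysosomes, read 38.3, 25.8 and 142. It was lowest at day 7, with a log2 ratio of -0.57 ± 0.13, and highest at day 21, with 2.04 ± 0.13 (4.10-fold), so the injured arrays were 5.50-fold apart. Ctsa, which protects the sialidase Neu1 and the galactosidase Glb1 in a complex, read 35.3, 71.5 and 68.3, with a day 21 against day 7 ratio of -0.06, or 1.31 with own-design scaling. Its log2 ratios to uninjured were 1.02 ± 0.13 and 1.10 ± 0.13, and with own-design scaling the day 7 ratio was -0.20. Tpp1, a tripeptidyl peptidase, had no probe shared with the day 7 array. Between the arrays of the older design it was 5.57-fold higher at day 21, a log2 ratio of 2.48 ± 0.19.

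**Figure D3:**
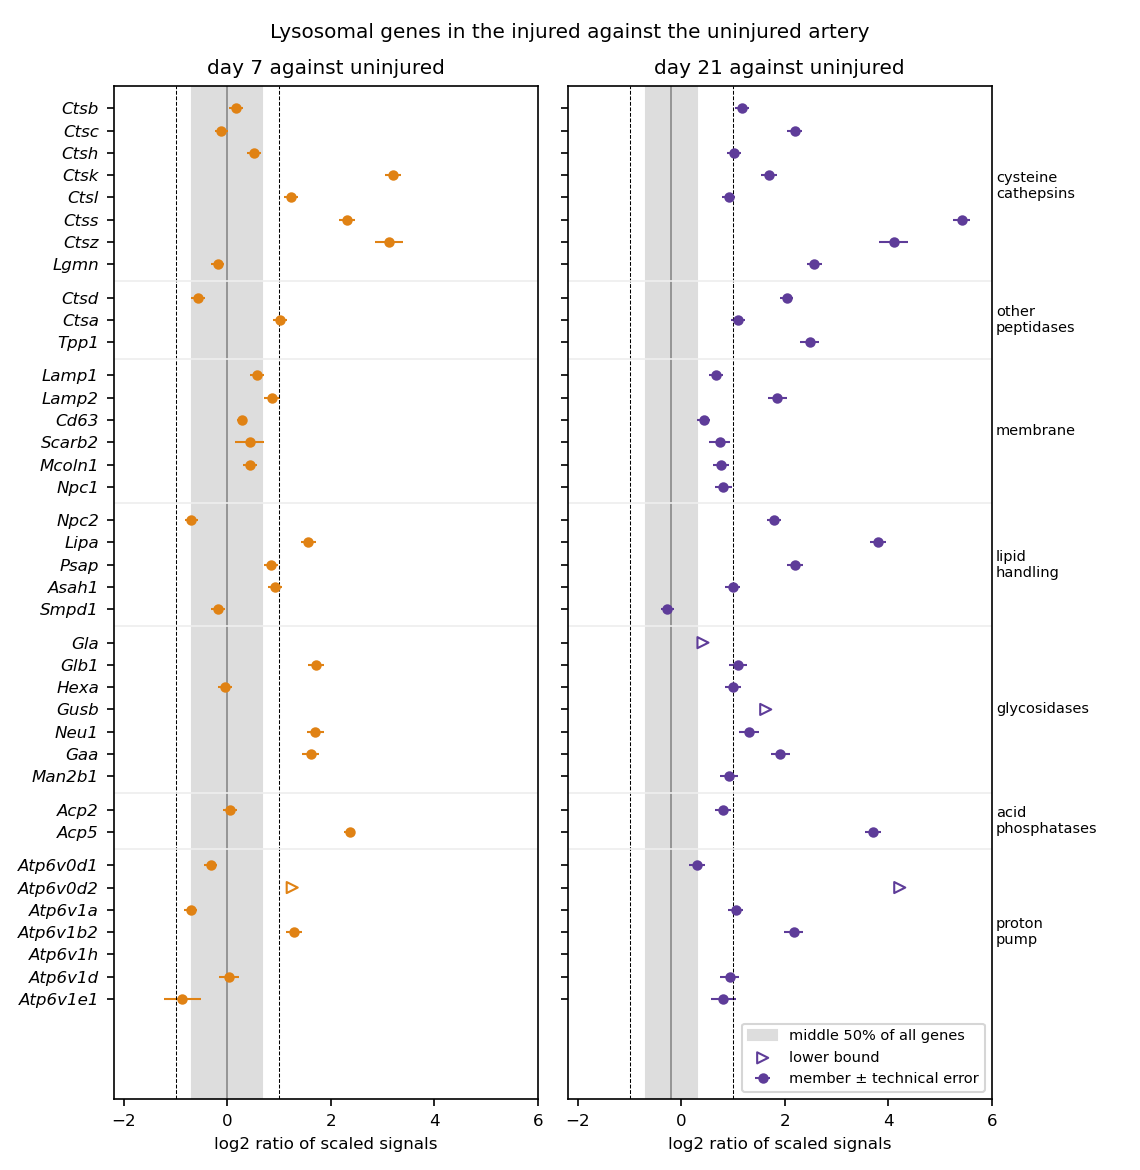
Log2 ratios of the members at day 7 (left) and day 21 (right) against the uninjured artery, by role, with the technical error as bars, lower bounds as open triangles, the middle 50% of all genes in grey and 2-fold as dashed lines. At day 21 the cathepsins reach from 0.91 (Ctsl) to 5.42 (Ctss), and the membrane proteins from 0.43 (Cd63) to 1.86 (Lamp2).

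Membrane proteins of the lysosome keep its contents apart from the cytosol and move lipids and ions across its boundary. At day 7, 0 of 5 measured genes were at least 2-fold higher (beside 16.1% of all genes), with a median log2 ratio of 0.44. At day 21 it was 1 of 6 (beside 9.11%), and the median was 0.75. Lamp2, a glycoprotein of the limiting membrane that takes part in chaperone-mediated autophagy, read 0.520, 0.941 and 1.70 and had 1.86 ± 0.18 at day 21 (3.62-fold). Its partner Lamp1 had 0.58 ± 0.14 and 0.67 ± 0.14 at day 7 and day 21. The day 21 ratios of the other 4 were 0.43 ± 0.13 for the tetraspanin Cd63, 0.74 ± 0.21 for Scarb2, the receptor that carries glucocerebrosidase to lysosomes, 0.76 ± 0.16 for the calcium channel Mcoln1, and 0.81 ± 0.17 for the cholesterol exporter Npc1. Whether these proteins differ from the soluble enzymes beyond animal spread was not tested.

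Among the genes for cholesterol and sphingolipid handling, 3 of 5 were at least 2-fold higher at day 21, beside 9.11% of all genes. At day 7 it was 1 of 5, beside 16.1%. The medians were 1.79 at day 21 and 0.84 at day 7. Lipa, the acid lipase that frees cholesterol and fatty acids from lipoprotein esters, read 1.12, 3.31 and 14.1. It stepped up on each array, with 1.57 ± 0.15 at day 7 (2.96-fold) and 3.80 ± 0.16 at day 21 (13.9-fold). Npc2, which hands that cholesterol to Npc1, did not take the same course. Its relative signals were 3.06, 1.89 and 9.58, lower at day 7 (-0.70 ± 0.12) and higher at day 21 (1.79 ± 0.14), with a 5.07-fold step between the injured arrays. Psap, the precursor of the saposins that present sphingolipids to their hydrolases, read 1.51, 2.70 and 6.22. It had 0.84 ± 0.14 at day 7 and 2.19 ± 0.15 at day 21 (4.57-fold). The acid ceramidase Asah1 read 2.48, 4.72 and 4.46, with 0.93 ± 0.14 and 0.99 ± 0.14. Day 7 log2 ratios with own-design scaling were 0.35 for Lipa, short of 2-fold, -0.38 for Psap and -0.29 for Asah1. Smpd1, the acid sphingomyelinase, was the 1 measured member below 0 at day 21, with -0.27 ± 0.13, and its 3 signals were close (12.9, 11.4 and 9.68).

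Of the glycosidases, which cut sugars from glycoproteins, glycolipids and glycogen, Glb1, Neu1 and Gaa were at least 2-fold higher on both injured arrays. At day 7 this rested on the scaling. Own-design scaling gave day 7 log2 ratios of 0.50 for Glb1, 0.48 for Neu1 and 0.39 for Gaa, short of 2-fold. At day 7, 3 of 4 measured genes were at least 2-fold higher than uninjured (beside 16.1% of all genes), with a median log2 ratio of 1.66. At day 21 it was 3 of 5 (beside 9.11%), with a median of 1.09. Day 21 against day 7 gave 0 of 4 genes past 2-fold (beside 10.7% higher and 20.0% lower) and a median of -0.19. Glb1, the beta-galactosidase, read 0.611, 2.01 and 1.18, with log2 ratios of 1.72 ± 0.16 and 1.09 ± 0.18 to uninjured. Neu1, the sialidase, read 0.413, 1.35 and 0.927, with 1.70 ± 0.16 and 1.31 ± 0.19. For both, day 7 was the highest array, but with own-design scaling day 21 lay above it, by 0.60 for Glb1 and 0.83 for Neu1. Gaa, the acid glucosidase that degrades glycogen, read 0.476, 1.45 and 1.62, with 1.61 ± 0.16 and 1.91 ± 0.18, and a day 21 against day 7 ratio of 0.15, or 1.52 with own-design scaling. Hexa, a hexosaminidase subunit, read 1.38, 1.34 and 2.49, with -0.04 ± 0.13 at day 7 and just under 2-fold at day 21. Among the rest, Gusb (a glucuronidase) had a day 21 bound of 3.09-fold, the mannosidase Man2b1 had 0.92 ± 0.17, and Gla, an alpha-galactosidase, was not well above background on the uninjured and day 7 arrays and at day 21 at least 1.33-fold above uninjured.

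The acid phosphatases split. Acp5, the tartrate-resistant phosphatase of macrophages and osteoclasts, read 1.45, 7.46 and 17.1. It stepped up on each array, to 2.36 ± 0.11 at day 7 (5.14-fold) and 3.70 ± 0.15 at day 21 (13.0-fold). Acp2, the widely expressed lysosomal form, read 1.16, 1.21 and 1.83, with 0.06 ± 0.14 and 0.80 ± 0.16.

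The proton pump has a membrane part that conducts protons and a cytosolic part that hydrolyses ATP. Of its 7 members, 1 of 5 measured was at least 2-fold higher at day 7, beside 16.1% of all genes. At day 21 it was 2 of 5, beside 9.11%, and the medians were -0.32 at day 7 and 0.93 at day 21. Between the injured arrays all 6 measured were above 0 (median 1.14). Of these, 3 were at least 2-fold higher at day 21, beside 10.7% of all genes. The isoforms of 1 position differed. Atp6v0d2, the d subunit isoform typical of osteoclasts and macrophages, read 0.0399, 0.157 and 1.10, the first of these not well above background. Day 7 exceeded uninjured by at least 2.38-fold and day 21 by at least 18.6-fold, and day 21 was 7.01-fold above day 7 (2.81 ± 0.21). Its ubiquitous counterpart Atp6v0d1 read 1.72, 1.37 and 1.90, with -0.32 ± 0.13 and 0.29 ± 0.15.

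In the cytosolic part, the regulatory subunit Atp6v1b2 read 0.462, 1.12 and 1.88 and stepped up on each array, with 1.28 ± 0.16 at day 7 and 2.17 ± 0.18 at day 21 (4.51-fold). With own-design scaling its day 7 ratio was 0.06, within that technical error. The catalytic subunit Atp6v1a read 2.02, 1.24 and 3.78, lowest at day 7 (-0.71 ± 0.12) and highest at day 21 (1.05 ± 0.14). Its 3 probes disagreed in size at day 21, at 0.17, 1.05 and 2.33. The stalk subunit Atp6v1d, which is part of the central rotor, had 0.04 ± 0.19 and 0.93 ± 0.19. Atp6v1e1, of the peripheral stalk, read 0.154, 0.0843 and 0.245, with -0.87 ± 0.36 and 0.81 ± 0.24. The error is wide because the signal was low: on the day 7 array 6 of its 10 spots were well above background, and the 10 ran from 5.50 to 52.9 intensity units. Atp6v1h was not well above background on either array of the older design.

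**Figure D4:**
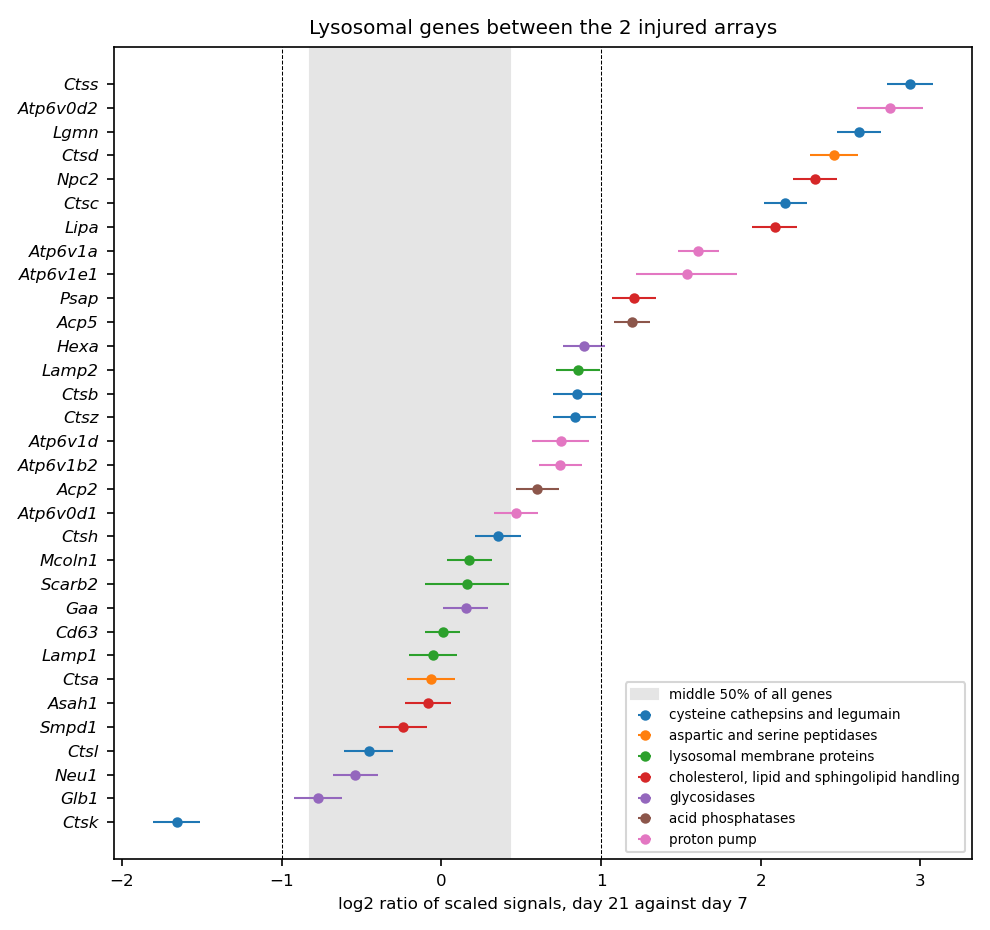
Log2 ratios of day 21 against day 7 for the 32 measured members, in order, coloured by role, with the technical error as bars, the middle 50% of all genes in grey and 2-fold as dashed lines. Ctsk lies alone below -1, at -1.66, and the 11 members above 1 end with Ctss at 2.94.

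Set in order, the day 21 against day 7 ratios show how far the members differed among themselves. After Ctss, the members at least 2-fold higher at day 21 were Atp6v0d2, Lgmn (2.62 ± 0.14), Ctsd (2.46 ± 0.15), Npc2 (2.34 ± 0.14), Ctsc (2.16 ± 0.13), Lipa (2.09 ± 0.14), Atp6v1a (1.61 ± 0.13), Atp6v1e1 (1.54 ± 0.32), Psap (1.21 ± 0.14) and Acp5 (1.19 ± 0.11). At the other end, above Ctsk, stood Glb1 (-0.77 ± 0.15), Neu1 (-0.54 ± 0.14) and Ctsl (-0.45 ± 0.15). Some neighbours in this order, such as Atp6v1a and Atp6v1e1, lay closer than their technical errors. The SD among members of the log2 ratio was 1.08 at day 7, 1.20 at day 21 and 1.13 between the injured arrays.

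Related genes outside the 38 were counted in the same way. For the other V-ATPase subunits only the median lay near 0 at day 21, at 0.06. Of 11 measured, 2 were at least 2-fold higher (Atp6v1c1 1.42, Atp6v0b 1.06), beside 9.11% of all genes. The 1 that was lower, beside 13.7%, was Atp6v1e2 (-2.48), followed by Atp6v0a2 at -0.94. At day 7, 2 of 7 were higher (Atp6v0c 1.31, Atp6v0b 1.06) and 0 lower, beside 16.1% and 16.3% of all genes. Atp6v1f at -0.40 and Atp6v0e2 at -0.25 were lowest, and the median was -0.10. Day 21 against day 7 had 1 of 8 higher (Atp6ap2 2.09, then Atp6v1f 0.62), beside 10.7%, and 0 lower, beside 20.0%. Atp6v0c (-0.46) and Atp6v0e2 (-0.42) were lowest, and the median was 0.05.

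Other lysosomal hydrolases came nearer to the members at day 21, with a median of 0.82. Of 21 measured, 7 were at least 2-fold higher and 2 lower, beside 9.11% and 13.7% of all genes. Pld3, an exonuclease of the phospholipase D family (2.89), and Gm2a, the activator that lifts GM2 ganglioside to its enzyme (2.58), were highest. Hyal1, a hyaluronidase (-1.30), and Ctsg, a serine protease of myeloid granules (-1.08), were lowest. Ctse, an aspartic protease of immune and epithelial cells, was at least 16.8-fold higher. At day 7, 5 of 12 were higher (Gm2a 2.38, Pld3 1.79) and 1 lower (Aga -1.11), beside 16.1% and 16.3%. The median was 0.29. At day 21 against day 7, 4 of 13 were higher and 0 lower, beside 10.7% and 20.0%. Aga at 1.75 was highest and Dpp7 at -0.46 lowest, and the median was 0.24.

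Other lysosomal membrane proteins had a median of 0.81 at day 21. Of 19 measured, 6 were higher and 1 lower, beside 9.11% and 13.7% of all genes. Laptm5, found in blood cells (5.40), and Slc11a1, the metal transporter of macrophage phagosomes (4.77), were highest, and Slc38a9 (-1.80) and Abcb9 (-0.90) lowest. At day 7, Laptm5 (4.03) and Slc11a1 (2.76) were the 2 of 10 that were higher, beside 16.1%. The 3 that were lower, beside 16.3%, were led by Abca2 (-1.91) and Laptm4b (-1.30), and the median was 0.03. Comparing the injured arrays, 4 of 10 were higher at day 21 and 1 lower, beside 10.7% and 20.0%. Slc11a1 (1.86) and Ostm1 (1.67) were highest, Abcb9 (-1.17) and Lamp3 (-0.26) lowest, and the median was 0.79.

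Genes listed as cathepsin inhibitors, among them cystatins, stefins and serpins, were few on the arrays. Whether each of them blocks the cathepsins described above was not examined. At day 21, 0 of 6 measured were at least 2-fold higher (beside 9.11% of all genes) and 1 was lower (beside 13.7%), with a median of 0.19. Cst6 (just under 2-fold) and Cst7 (0.97) were highest and Cst8 (-1.16) and Serpina3n (-0.86) lowest, and Serpinb1a was at least 5.75-fold higher. At day 7, 0 of 4 were higher and 2 lower, beside 16.1% and 16.3%, with a median of -0.99. Serpina3n was at -1.20, Cst3, the main secreted cystatin, at -1.04, Cst8 at -0.95 and Cstb, a cytosolic stefin, at 0.29. In the comparison of the injured arrays, 0 of 4 were past 2-fold in either direction, beside 10.7% higher and 20.0% lower. They ran from -0.36 (Cst8) and 0.19 (Serpina3n) to 0.36 (Cst3) and 0.50 (Cstb), with a median of 0.27.

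Genes for enzyme delivery and for control of lysosome genes split by comparison. At day 21, 2 of 12 were at least 2-fold higher, the mannose 6-phosphate receptor M6pr (1.18) and Rragc (1.01), and 0 lower (beside 9.11% and 13.7% of all genes), with Mtor (-0.11) and Tfeb itself (-0.09) lowest and a median of 0.42. At day 7, 0 of 8 measured were higher and 3 lower (beside 16.1% and 16.3%), and Tfec and Rragd, each dim before injury, had bounds of 3.38-fold and 2.34-fold higher. Of the 8 measured, the sorting receptors Sort1 (-1.31) and Igf2r (-1.29) were lowest and Rab7a (0.74) and Vps33a (0.49) highest, with a median of -0.28. Between the injured arrays 4 of 10 were higher, Igf2r (1.58) and Sort1 (1.57) first, beside 10.7% of all genes. The 2 lower were Tfec (-1.81) and Rragd (-1.46), beside 20.0%, and the median was -0.14.

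The difference between the median of the members and that of all genes was recomputed under each processing choice. Median and own-design scaling add 1 constant to every gene, so this difference is the same under them by construction. Over all 8 choices it ran from 0.53 to 0.90 at day 7, from 1.23 to 1.53 at day 21 and from 0.57 to 1.01 between the injured arrays. At day 7 the median of all genes shifted by -0.38 with median scaling, by -0.13 with normexp background correction, by -1.22 with own-design scaling and by -0.71 in the authors' deposited table. At day 21 the shift was 0.48 with median scaling, 0.14 with quantile normalization, 0.12 with normexp, 0.15 in the authors' deposited table and -0.12 with no filter on dim probes. Between the injured arrays it was 0.46, 0.24 and 0.92 with median scaling, with quantile normalization and in the authors' deposited table, and 1.37 with own-design scaling.

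The split of all calls moved with these shifts. At day 7, 49.7% of the genes past 2-fold were higher, and 26.2% with median scaling, 5.46% with own-design scaling and 20.1% in the authors' deposited table. At day 21 the share was 39.9%, and 77.1%, 55.6%, 74.8% and 57.4% with median scaling, quantile normalization, normexp and the authors' deposited table. Between the injured arrays it was 34.9%, and 65.9%, 59.2%, 95.2% and 86.4% with median scaling, quantile normalization, own-design scaling and the authors' deposited table. The members past 2-fold at day 21 were all higher, 100% of calls, under each of these choices. For the highest members the day 21 log2 ratio kept within 5.08 to 5.90 for Ctss, 3.54 to 4.28 for Lipa and 3.49 to 4.18 for Acp5, while Ctsz ran from 2.43 to 4.67.

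**Figure D5:**
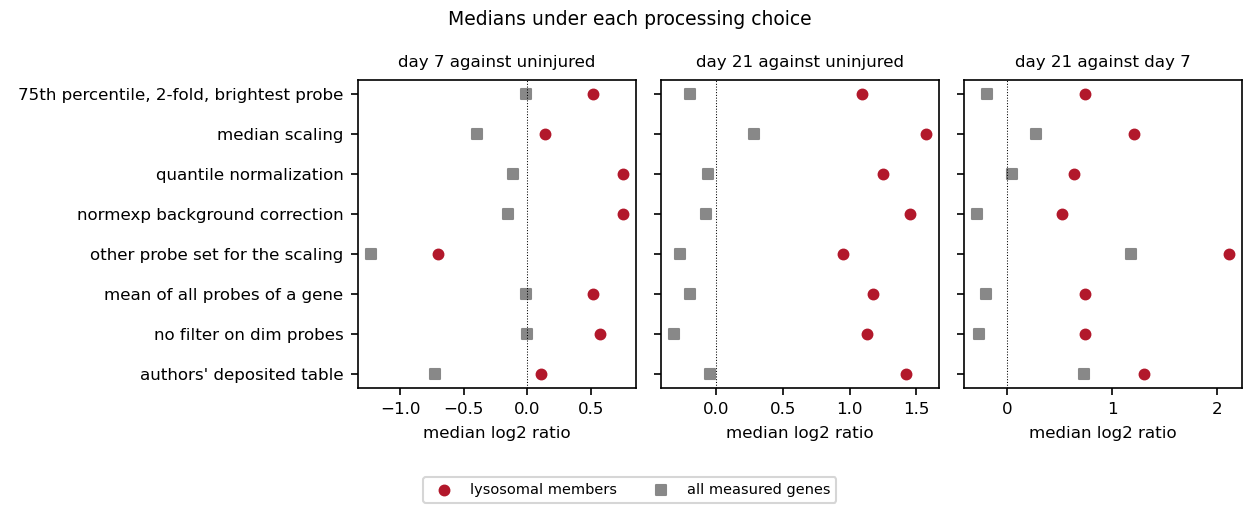
Median log2 ratio of the lysosomal members (red circles) and of all measured genes (grey squares) under each of 8 processing choices, for the 3 comparisons. The circle lies right of the square in every row, while both fall below 0 at day 7 with own-design scaling (labelled as the other probe set), at -0.70 and -1.23.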

How the data were processed

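Total RNA was labelled with Cy3 and hybridised to 1-colour Agilent rat arrays. Agilent Feature Extraction produced the spot intensity values, per the file headers, with background subtraction and detrending but no normalization between arrays (version 11.0.1.1 for day 7, 10.7.3.1 otherwise). In the authors' deposited table the 9260 rows are log2 values, with column medians of 7.64, 7.62 and 7.64. Its normalization and centring stay unknown, and its log2 scale and direction were checked against the scanner signals (Pearson's r across probes 0.947, 0.977 and 0.951).

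Control spots and outlier spots were left out, repeated spots of a probe were averaged as log2, and the 75th percentile of each array was subtracted. Comparisons with day 7 used the 10583 probes usable on all 3 arrays. Gene names came from a RefSeq table of GRCr8, by accession without version (42.7% of the probes of the older design and 76.0% of the shared ones had a name), and the array design was built on rn4. A gene was read at its probe with the highest mean signal. No model was fitted, as each group has 1 array. Technical errors came from probes with at least 5 spots, 1390 at day 7 and 263 on each other array. The number of arrays limits the precision of all ratios.

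The members, the wider gene lists and the cell type markers were chosen with earlier results of these data known. Values per array are given for members at least 2-fold apart in any comparison and for those whose direction differed, and the wider lists by counts and their 2 highest and 2 lowest ratios, some of which are not reported here; bounds of Mmp9, Ctse and Serpinb1a were named after their values were seen. Alternatives were median, quantile and own-design or shared-probe scaling, normexp in limma 3.58.1 (R 4.3.3), the mean of all probes, no filter on dim probes, a 1.5-fold threshold and the deposited table. Normexp used the median spot signal and the median local background, with an offset of 50, where the plan named the mean signal. The counting was tested on simulated data.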

Additional observations from a re-analysis of the deposited data

Results flagged for a closer look

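For 8 members the injured arrays lay on opposite sides of the uninjured one. In 2 of them, Ctsc and Hexa, the day 7 ratio (-0.12 and -0.04) was smaller than its technical error (0.13 for both). For the other 6 the log2 ratios at day 7 and day 21 were -0.19 and 2.57 for Lgmn, -0.57 and 2.04 for Ctsd, -0.70 and 1.79 for Npc2, -0.32 and 0.29 for Atp6v0d1, -0.71 and 1.05 for Atp6v1a, and -0.87 and 0.81 for Atp6v1e1. The difference between the days was not tested, and both ratios share the uninjured array. The day 7 ratios of these 6 were below 0 and the day 21 ratios above 0 under each processing choice that gave a value. With scaling on the shared probes the day 21 ratio of Atp6v0d1 was 0.148, within its technical error of 0.155. The count of 8 rests on the scaling: 22 of 31 members were above 0 at day 7, 18 with median scaling and 10 with own-design scaling. The share of all genes with opposite signs was not counted.

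The day 7 array also holds member probes that are not on the other design, so their signals, in intensity units, enter no comparison. They read 138 for Atp6v1h, 2482 for Glb1, 881 and 111 for 2 probes of Gusb, 8470 for Man2b1, 558 and 216 for 2 probes of Npc1, and 1595 for Tpp1.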

How the results depend on the processing

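No paired analysis was possible because each group has 1 array, and for that reason no replicate was left out and no scan block fitted. Dim signal limits Gla, Gusb, Atp6v0d2 and Atp6v1h, and Atp6v1e1 at day 7.

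At day 7, median scaling gave 3 members at least 2-fold lower, beside 27.2% of all genes, and a median log2 ratio of 0.14. Quantile normalization gave 1 lower, beside 19.3%, and a median of 0.76, and normexp a median of 0.75. The authors' deposited values gave 3 lower, beside 40.5%, and a median of 0.11. Own-design scaling gave 4 higher and 12 lower, beside 3.43% and 59.5%. The members' median was then -0.70, and Ctsa turned to -0.20. A threshold of 1.5-fold gave 3 lower, beside 28.5%.

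At day 21 against uninjured, 31 members were higher with median scaling and 31 at 1.5-fold, beside 17.5% and 15.9% of all genes. The median was 1.58 with median scaling, 1.25 with quantile normalization, 1.45 with normexp and 1.42 in the authors' deposited table. Scaling on the shared probes left 31 measured members, 15 of them higher, beside 9.05% of all genes.

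Between the injured arrays, 18 members were higher with median scaling, 28 with own-design scaling, 18 at 1.5-fold and 18 in the authors' deposited table, and 0 were lower with own-design scaling and 2 at 1.5-fold. The median was 1.21 with median scaling, 0.53 with normexp, 2.12 with own-design scaling and 1.31 in the authors' deposited table. Of the single members past 2-fold, Ctsa at day 7 was the 1 that changed sign under these alternatives.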

Other observations

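Npc1 had 5 probes on the older design, and at day 21 against uninjured the 3 that were well above background on both arrays gave log2 ratios of -0.03, 0.73 and 0.81. The 3 probes of Ctsa, by contrast, gave 1.10, 1.52 and 1.67, and the pair for Ctsl 0.91 and 1.42. Neu1 (1.31 and 1.37) and Atp6v1b2 (2.17 and 2.31) had probes that lay close together. For Atp6v1a the probe chosen decides whether the gene passes 2-fold.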
